A study of Mus musculus with 4 samples.

Results

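The Lyve1-positive lymphatic endothelial cells (LECs) of mouse digits collected after tip amputation were described from 541 cells among 93602 kept cells of 4 droplet-based scRNA-Seq libraries. A kept barcode held 200 to 5500 detected genes, at most 30000 unique molecular identifiers (UMIs, the count of captured transcripts) and at most 10% UMIs from mitochondrial genes. A cell was a member when it carried UMIs of at least 3 of the 4 lymphatic genes Prox1, Mmrn1, Reln and Flt4, and at least 2 UMIs of Lyve1. The levels of these 5 genes therefore chose the cells, and they are given as a description with no test. The 4-gene condition alone was met by 855 cells, of which 63.3% were members, 63 carried 1 Lyve1 UMI and 251 carried none.

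All libraries came from hindlimb digits of female C57BL/6 mice (C57BL/6J in the study's methods) aged 6 to 8 weeks, amputated through the tip of the terminal phalanx (P3), with the digits of 10 mice pooled per library. By the methods, digits for sequencing were cut proximally, in the phalanx next to P3, so the tissue reached beyond the regenerating tip. The methods also collect more digits per limb than they describe as amputated, so unamputated digits may be included. The study's text places them at 8 days postamputation (DPA), whereas a figure legend gives another day for the diet pair. In the first pair, mice ate chow with SAR131675, an inhibitor of the lymphatic growth factor receptor VEGFR3, at 30 mg/kg, or control chow, and the labels record 8 days of diet while the methods start it before amputation. In the second pair, the popliteal and inguinal lymph nodes of 1 limb were removed (LNR) and the contralateral limb served as sham. Both controls are labelled as untreated, and all 4 groups share the amputation. Each condition is 1 library and the labels number every library as a separate batch, so batch and treatment cannot be told apart. Fewer cells of a type in the tissue and poorer release of that type from digested tissue cannot be told apart either.

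The libraries held 21669 to 38464 barcodes and 168507188 to 585284877 UMIs. The LNR pair had a median of 5725 and 5851 UMIs per kept cell and the diet pair 11316 and 10712, and the file headers name different Cell Ranger versions for the pairs, so results rest on comparisons within a pair or within a library, and a level that differs between the pairs is named only as a limit. LNR and sham shared 101 kept barcodes, the 2 diet libraries shared 210 and the other pairs of libraries at most 2, but no barcode was a member in more than 1 library.

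Initial lymphatic vessels are blind-ended capillaries whose endothelium takes up fluid, solutes and leukocytes, and they drain into collecting vessels with valves. Prox1 encodes the transcription factor that sets lymphatic identity, Flt4 encodes VEGFR3, Reln and Mmrn1 encode secreted matrix proteins, and Lyve1 encodes a hyaluronan receptor that capillary LECs carry and collecting vessels mostly lack. Lyve1 is also carried by a class of resident tissue macrophages, so Lyve1 alone does not mark LECs.

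Lyve1-positive LECs made up 0.499% of kept cells in the SAR131675 diet library, with an exact 95% Clopper-Pearson interval of 0.421 to 0.587 (145 of 29076 cells). In the control diet library the share was 0.695%, from 0.594 to 0.808 (167 of 24030 cells). The log2 ratio of the shares was -0.48, with an exact conditional interval of -0.81 to -0.15. In the LNR library the share was 0.53%, from 0.433 to 0.641 (105 of 19827 cells), and in sham it was 0.6%, from 0.499 to 0.715 (124 of 20669 cells), a log2 ratio of -0.18 with an interval of -0.57 to 0.21. The share was thus lower in the SAR131675 library than in its control beyond counting error, and the LNR and sham shares were not separated at this depth. These intervals, like all counting intervals below, cover counting error only, and no difference between conditions has a replicate check. Among all LECs, members were 62.5% (SAR131675), 69% (control diet), 56.1% (LNR) and 63.9% (sham), and with this denominator the log2 ratio of the diet pair was -0.14 (-0.47 to 0.19). Against members and blood endothelial cells together it was -0.43 (-0.77 to -0.1). The interval also reached 0 with cells thinned to 3000 UMIs, at -0.37 (-0.76 to 0.02), and without member barcodes that carried markers of other cells, at -0.34 (-0.69 to 0.01).

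**Figure D1:**
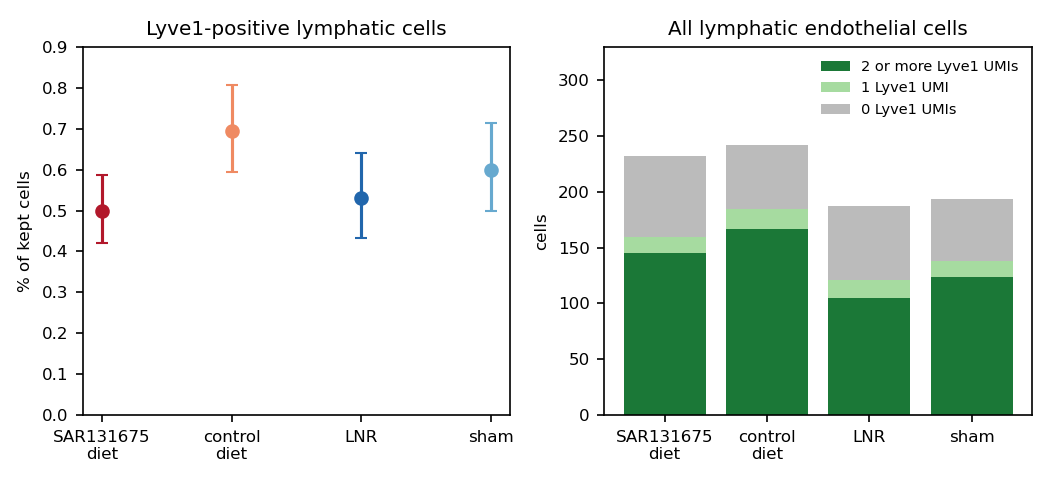
Left, Lyve1-positive LECs as a percentage of kept cells in each library, with 95% Clopper-Pearson intervals for counting error. Right, the number of all LECs of each library by their Lyve1 UMIs. The SAR131675 point lies at 0.499% and its control at 0.695%, while the LNR and sham intervals overlap.

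Members carried a median of 17 Lyve1 UMIs in SAR131675, 18 in control diet, 7 in LNR and 9 in sham, and the highest cell of each library carried 140, 140, 77 and 68. At least 10 Lyve1 UMIs were found in 316 of the 541 cells, and 425 had UMIs of all 4 lymphatic genes. By gene, 537 members had a UMI of Mmrn1, 525 of Reln, 498 of Flt4 and 488 of Prox1. The median member held 5378 UMIs in SAR131675, 5649 in control diet, 4741 in LNR and 4992 in sham, against 5664, 6979, 5950 and 6642 for LECs with no Lyve1 UMI, so members were not the deeper cells. Among keratinocytes, which should lack Lyve1, 1.16% to 2.24% of cells had a Lyve1 UMI and 0.225% to 0.55% had at least 2, at medians of 8841 to 13866 UMIs.

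Levels are given as CPM, UMIs of a gene scaled to the same total of UMIs per class, over the summed cells of a class, in the order SAR131675 diet, control diet, LNR and sham. Lyve1 stood at 3220.2, 3117, 1976 and 1892 CPM in members, and at 2399, 2775, 1819 and 1699 CPM in macrophages with at least 2 Lyve1 UMIs. The same limit on Lyve1 chose both classes, so the likeness of their levels is partly set by it. Of 6405 macrophages, 2290 met the limit. Those macrophages had no UMI of Prox1, Mmrn1 or Reln, which their definition required, and they carried Ccl21a at 1.91, 1.45, 1.39 and 1.45 CPM. Prox1 measured 1108, 937, 515 and 509 CPM in members and 1240.4, 1032, 484 and 531 CPM in LECs with no Lyve1 UMI. Mmrn1 measured 2810.2, 2656, 2602 and 2432 CPM in members against 1168, 1259, 1156 and 1028 CPM. Flt4 measured 586, 614, 775 and 669.8 CPM in members against 267, 253, 314 and 316 CPM, and 13.2, 14, 11.7 and 7.51 CPM in blood endothelial cells. As a description, Prox1 had about the same level in LECs with and without Lyve1 in each library, while Mmrn1 and Flt4 were higher in members in all 4 libraries. The rule chose both classes by UMIs of these genes and of Reln, which is not compared here, so no conclusion is drawn from their levels. Among genes the rule did not use, 15 lymphatic identity genes summed to 15580 to 23840 CPM in members against 705 to 1026 CPM in blood endothelial cells, and 15 blood endothelial markers summed to 589.7 to 847 CPM against 5773 to 9899 CPM, with Esm1 and Gja5 at 0 in members.

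The cells on either side of the Lyve1 limit were few. There were 37 members with exactly 2 Lyve1 UMIs and 63 excluded LECs with 1 Lyve1 UMI. Ccl21a stood at 5774, 3446, 9553 and 7690.4 CPM in the former and 7247, 6295, 5076 and 3647 CPM in the latter, so cells with 2 UMIs had the lower level in the diet pair and the higher level in the LNR pair. Piezo2 stood at 722, 1159, 111 and 71.9 CPM with 2 UMIs and 365, 519, 17.3 and 57.3 CPM with 1 UMI, from 4 to 36 and 2 to 68 UMIs per library. Foxp2 stood at 226, 515, 111 and 35.9 CPM and 456, 283, 129.9 and 45.9 CPM, with no common direction.

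**Figure D2:**
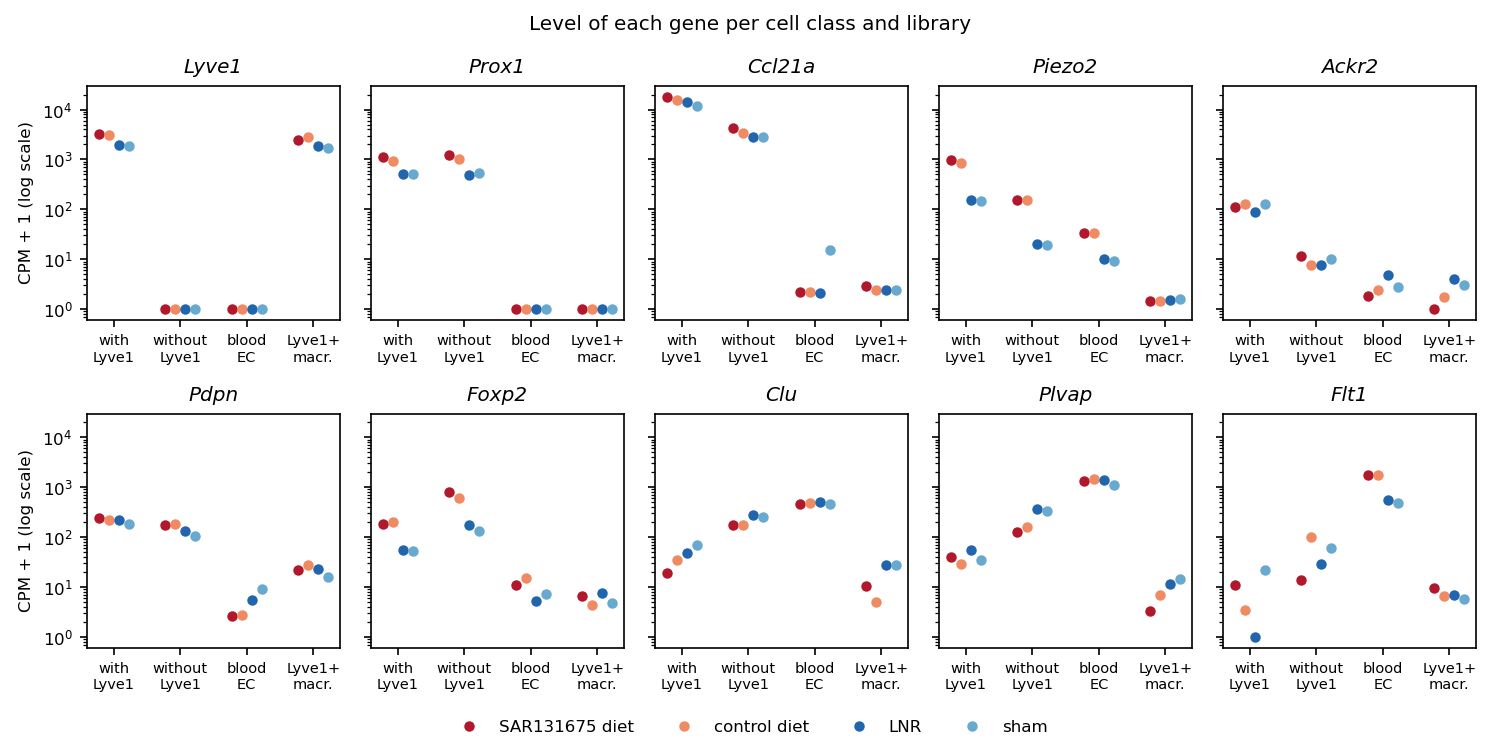
CPM plus 1 (log axis) of 10 genes in LECs with Lyve1, LECs without a Lyve1 UMI, blood endothelial cells (EC) and macrophages with at least 2 Lyve1 UMIs, with a point for each library. Ccl21a, Piezo2 and Ackr2 were higher in LECs with Lyve1 than in LECs without in every library, and Foxp2, Clu and Plvap were lower. The Lyve1 and Prox1 values follow from how the classes were defined.

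Lyve1-positive LECs were then compared with the 251 LECs without a Lyve1 UMI in the same libraries. UMIs were summed per library and class and fitted with edgeR's quasi-likelihood test with library as a block, over 7883 genes and without the 5 genes of the rule. Of these, 339 genes were higher in members (4.3% of those tested) and 378 were lower (4.8%) at a Benjamini-Hochberg adjusted p under 0.05. CPM in this and the following tests are on library sizes scaled by the trimmed mean of M values, so they differ slightly from those above. The 4 libraries serve as replicates although their treatments differ. LNR and sham are opposite limbs of mice operated on 1 side, so they are not independent pools of mice, which the fit does not model. Without LNR 296 genes were higher and 365 lower, and without sham 269 and 298. On simulated counts, more of the calls in this comparison and in that with blood endothelial cells were false than the threshold aims at, so their counts are less certain than the adjusted p states.

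Genes of lymphatic capillaries were higher in members. Of 8 genes listed for capillary LECs 7 were tested, 6 were higher and none was lower, with a median log2 fold change of 0.83 beside -0.004 over all genes. Of all genes 4.3% were higher and 4.8% lower. The lists were drawn up with earlier results of these data known, so their counts describe the classes and are not independent support. Ccl21a, the chemokine that draws CCR7-bearing dendritic cells and T cells to lymphatics, measured 16739.7, 13964, 16546 and 13707 CPM in members and 3884, 3097, 3299.6 and 3333 CPM in LECs without Lyve1, a log2 fold change of 2.16 ± 0.04 (SE, n = 4 libraries), adjusted p = 2.19e-16. Each of the 4 summed member values lay above all 4 values of LECs without Lyve1. The near-identical copies Ccl21d and Ccl21b held 16, 11, 22 and 20 and 5, 2, 0 and 1 UMIs in members against 18488, 19178, 10906 and 9488 for Ccl21a, and reads that fit several copies may not have been counted. Ackr2, a decoy receptor that scavenges inflammatory CC chemokines, measured 101, 116, 102 and 149 CPM against 10.1, 6.06, 7.73 and 11.1 CPM, with a log2 fold change of 3.69 ± 0.24 (SE, n = 4 libraries), adjusted p = 1.50e-09. It had the largest rise of the named genes. Piezo2, a mechanically gated ion channel, measured 896, 773, 179 and 172 CPM against 141, 141, 23.2 and 22.1 CPM, with a log2 fold change of 2.66 ± 0.13 (SE, n = 4 libraries), adjusted p = 2.37e-11. Its levels were several times higher in the diet pair than in the LNR pair in both classes, and the within-library difference was present in every library. Pdpn, the membrane glycoprotein podoplanin, rose by less, with a log2 fold change of 0.55 ± 0.12 (SE, n = 4 libraries), adjusted p = 0.00421, and Nrp2, a co-receptor for VEGF-C, rose by 0.83 ± 0.12.

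These differences were also seen per cell. With every cell thinned to 3000 UMIs, which left out 20 to 41 members and 10 to 18 LECs without Lyve1 per library, Ackr2 was detected in 18.8% to 32.0% of members and 0% to 5.0% of LECs without Lyve1. Unthinned, these shares were 30.5% to 47.3% and 3.51% to 8.33%. Piezo2 was detected in 32.8% to 84.0% of thinned members and 4.17% to 31.7% of thinned LECs without Lyve1 (50.8% to 94.5% and 12.1% to 45.8% unthinned). In blood endothelial cells, thinned Ackr2 was detected in 0.152% to 1.14% and Piezo2 in 2.19% to 7.62% of cells.

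Other genes with the largest rises in members, chosen by a fixed rule of size, included Enpp3, an ectonucleotidase, at 3.56 ± 0.25, and Slco2b1, an organic anion transporter, at 3.06 ± 0.21. Antxr2, a receptor that binds collagen VI, rose by 2.95 ± 0.30, Apba2 by 2.53 ± 0.19, the actin-binding Ablim3 by 2.50 ± 0.23, the membrane repair protein Dysf by 2.34 ± 0.27 and the sialyltransferase St8sia6 by 2.30 ± 0.32 (log2, SE, n = 4 libraries). The rule kept only genes that were higher in members in 4 of 4 libraries, so this agreement is not a separate result. The summed values of the classes did not overlap for any of these genes, which the choice by size makes likely, so it is no separate result either. Slco2b1 measured 109.6, 109.9, 114 and 131 CPM in members and 13.4, 14.1, 12.9 and 13.8 CPM without Lyve1. Itih5, a hyaluronan-binding matrix protein, measured 180.2, 172, 169.9 and 173 CPM against 6.72, 24.2, 28.3 and 66.3 CPM without overlap, and its adjusted p was 0.0595 by edgeR. Without barcodes marked for other cells it passed, as did Mrc1, the other tested gene of its list.

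Genes of collecting vessels and valves were lower in members or did not pass the test. Of 20 such genes 19 were tested, none was higher and 6 were lower, beside 4.3% and 4.8% of all genes. This list, too, was drawn up with earlier results of these data known. Foxp2, a transcription factor of collecting lymphatics, measured 167, 181, 62.2 and 60.7 CPM in members and 731, 574, 206 and 158 CPM without Lyve1, a log2 fold change of -1.77 ± 0.13 (SE, n = 4 libraries), adjusted p = 5.26e-09. In each library the member value was the lower. Clu, the secreted chaperone clusterin, measured 16.3, 30.6, 54.6 and 80.9 CPM against 161, 159.6, 325 and 301 CPM, a change of -2.46 ± 0.17 (SE, n = 4 libraries), adjusted p = 8.72e-08. Clu was not particular to LECs, since 59.3% to 61.7% of thinned blood endothelial cells carried it. Foxc2 and Gata2, transcription factors needed for valves, changed by -1.06 ± 0.21 and -1.08 ± 0.15. Cldn11, a tight junction protein, changed by -1.63 ± 0.27, and Efnb2, an ephrin ligand of collecting vessels, by -0.60 ± 0.11. Among the genes with the largest falls were also Plvap, the diaphragm protein of fenestrae, at -2.60 ± 0.21, the prostaglandin transporter Slco2a1 at -2.58 ± 0.18, Ccdc3 at -2.34 ± 0.18, Fibin at -2.36 ± 0.30, Kif26b at -2.32 ± 0.27, Cmah at -2.25 ± 0.43, Cd93 at -2.24 ± 0.26 and the protease Adamts9 at -2.20 ± 0.17. All of these were lower in members in 4 of 4 libraries, which the rule required of the genes with the largest falls.

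**Figure D3:**
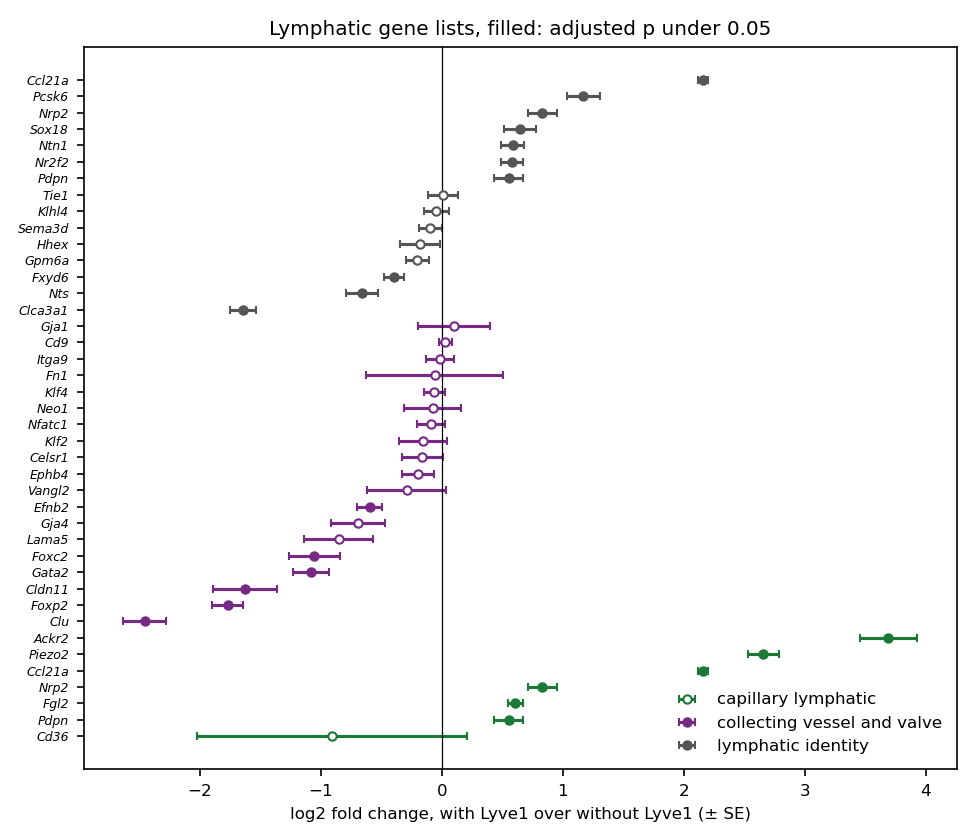
Log2 fold change with its SE for Lyve1-positive LECs over LECs without a Lyve1 UMI, for 3 gene lists, with filled points at an adjusted p under 0.05. Of 7 capillary genes 6 lie to the right and pass, 6 of 19 collecting vessel and valve genes lie to the left and pass, and the lymphatic identity list is split. The lists were drawn up with earlier results of these data known.

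Genes of general lymphatic identity were split. Of 15, 7 were higher in members and 3 were lower, beside 4.3% and 4.8% of all genes, with a median log2 fold change of 0.01. The transcription factors Nr2f2 and Sox18 were higher by 0.58 ± 0.09 and 0.65 ± 0.14, and the guidance factor Ntn1 by 0.58 ± 0.10. Clca3a1, a marker of lymphatic vessels in skin and lymph node, changed by -1.64 ± 0.11, at 196, 216, 225 and 224 CPM in members against 601, 841, 688 and 569 CPM, and the neuropeptide precursor Nts by -0.66 ± 0.14. Of 19 genes of VEGF-C and angiopoietin signaling, 10 were tested, Nrp2 was higher and 5 were lower. These were Angpt2 (-0.73 ± 0.15), which encodes a ligand of the receptor Tek, Tek itself (-0.60 ± 0.13), Kdr (-0.32 ± 0.09), which encodes VEGFR2, Ptprb and Vegfb.

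Of 24 leukocyte trafficking genes, 13 were tested, 4 were higher in members and 1 was lower. Besides Ccl21a and Ackr2, the CXCL12 scavenger Ackr3 was higher by 1.09 ± 0.11 and the lymphocyte cytokine Il7 by 0.42 ± 0.12, which no longer passed without barcodes marked for other cells (0.34, adjusted p = 0.143 by edgeR), while Icam1, an adhesion molecule for leukocytes, was lower. Tgfb1 was higher by 0.59 ± 0.13 and was among 4 of 16 tested secreted factors that rose, with 4 that fell, beside 4.3% and 4.8% of all genes. None of the 8 tested genes of cell division passed in either direction.

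Transcripts of other cells were found in part of the members. Taking keratin UMIs of at least 1%, at least 4 of 6 fibroblast genes, at least 3 of 8 macrophage genes or at least 3 of 6 pericyte genes as a mark of other cells, 89 of the 541 members and 39 of the 251 LECs without Lyve1 carried such a mark. By library, these were 7.59%, 16.2%, 20% and 24.2% of members and 11.1%, 8.77%, 19.7% and 23.2% of LECs without Lyve1. F13a1 and Lyz2, which macrophages carry, were higher in members with log2 fold changes of 3.51 and 1.54. The other 3 tested genes of 15 macrophage markers did not pass, and the summed markers reached 72.1 to 809 CPM in members against 34.9 to 289 CPM. The pan-leukocyte gene Ptprc was at 12.8, 0, 5.25 and 2.44 CPM in members and 289, 288, 192 and 175 CPM in macrophages with Lyve1. Without the marked barcodes, no macrophage marker was abundant enough to test. Ackr2 then stood at 3.66, Piezo2 at 2.65, Ccl21a at 2.17, Antxr2 at 3.71, Foxp2 at -1.90 and Clu at -3.18, and 277 of the 339 rises and 296 of the 378 falls were called again. The mannose receptor Mrc1, which macrophages and LECs carry, rose by 2.05 ± 0.35 with all members and by 1.93 without the marked barcodes. Of 8 pericyte and smooth muscle markers 4 were tested and Tagln was lower in members, with summed levels of 29.4 to 300.1 CPM against 99.7 to 809 CPM. Of 8 keratinocyte markers Krtdap was lower, and none of 8 fibroblast markers passed. Of 15 blood endothelial markers 8 were tested, Hey1 was higher and Plvap lower in members. Of 14 pan-endothelial genes, 6 (Egfl7, Emcn, Erg, Kdr, Ptprb and Tek) were lower in members and none was higher. Of all genes tested, 4.3% were higher and 4.8% lower, the shares to set beside each marker list here. A list with 1 call is too short to be told from these shares. The mark of other cells held no blood endothelial class, and a part of blood endothelial RNA in these differences was not tested. Leaving out the library block reduced the calls to 13 higher and 8 lower genes.

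Against 2793 blood endothelial cells, members were higher in 14 of 15 lymphatic identity genes that the rule did not use. Blood endothelial cells had UMIs of at least 3 of Pecam1, Cdh5, Egfl7, Emcn, Ptprb and Kdr, and no UMI of Prox1, Mmrn1, Reln or Lyve1, and these genes were left out. Of 11827 genes, 1308 were higher in members (11.1%) and 1665 were lower (14.1%). Of 15 lymphatic identity genes, 14 were higher and none was lower, with a median log2 fold change of 4.10 beside 0.01 over all genes. Pdpn measured 215, 194, 232 and 201 CPM in members and 1.56, 1.64, 5.31 and 9.33 CPM in blood endothelial cells, a log2 fold change of 5.77 ± 0.49 (SE, n = 4 libraries), adjusted p = 0.00106. The classes were far apart in each library. Of 15 blood endothelial markers, 12 were lower and 1, Hey1, was higher. Flt1, which encodes VEGFR1, measured 8.68, 2.09, 0 and 22.9 CPM in members and 1612, 1615, 646 and 557 CPM in blood endothelial cells. Esm1, a marker of sprouting tip cells, had no UMI in members of any library and was at least 68.3-fold lower than in blood endothelial cells, taking 3 counts over all members as the floor.

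The VEGF receptors and co-receptors differed between the vessel types. Nrp1, a co-receptor for VEGF-A, measured 8.68, 2.79, 14.2 and 13.5 CPM in members against 402, 396, 249 and 212 CPM, a log2 fold change of -5.17 ± 0.46 (SE, n = 4 libraries), adjusted p = 7.37e-04. Nrp2 was higher in members by 0.70 ± 0.11. Vegfc, the ligand of VEGFR3, measured 0.868, 5.59, 1.42 and 0 CPM in members against 95.7, 69, 21.2 and 24 CPM in blood endothelial cells, a log2 fold change of -4.59 ± 0.41 (SE, n = 4 libraries), adjusted p = 7.87e-05. Itga9, an integrin subunit of lymphatic valves, was higher in members by 1.91 ± 0.17, and so were Vegfb by 1.18 ± 0.17 and Angpt2 by 0.65 ± 0.12. Of 15 tested genes of this list, 4 were higher and 4 lower, beside 11.1% and 14.1% of all genes.

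In leukocyte trafficking, 6 of 23 tested genes were higher in members and 11 were lower. Of all genes tested, 11.1% were higher and 14.1% lower, the shares to set beside each list of this comparison. The endothelial selectins Sele and Selp, which catch leukocytes from blood, changed by -8.74 ± 0.50 and -7.26 ± 0.95, Icam1 by -1.55 ± 0.22 and the adhesion molecule Vcam1 by -2.12 ± 0.55. Ccl21a, Il7, Ackr2 and Ackr3 were higher, with Il7 at 178, 149, 148 and 128 CPM in members and 0.779, 1.64, 1.59 and 1.87 CPM in blood endothelial cells. Of 16 tested genes of antigen presentation and interferon response, 10 were lower in members and none was higher. H2-K1, a class I heavy chain, changed by -1.96 ± 0.12 and B2m, its light chain, by -1.46 ± 0.16. Of 13 tested genes of scavenging and lipid uptake, 4 were higher in members (Colec12, Gpihbp1, Mrc1 and Stab1) and 5 were lower. Among the latter, the fatty acid carriers Fabp4 and Cd36 changed by -7.09 ± 1.00 and -2.96 ± 0.35 and the lipoprotein receptor Scarb1 by -6.89 ± 0.20. Cldn5, the endothelial tight junction claudin, was higher in members by 2.09 ± 0.20.

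By the rule of size, the largest rises against blood endothelial cells besides Ccl21a were Sh3gl3 at 9.85, Dtx1 at 8.80, Slc45a3 at 8.28, D330037F02Rik at 8.22, the oxidase Duox2 at 7.08, Nts at 6.91, Fgf12 at 6.82 and Apba2 at 6.75. The largest falls besides those given were Gm12002 at -7.97, C1qtnf9 at -7.96, the substance P receptor Tacr1 at -7.63 and Ptprr at -7.60. Pericyte markers moved with this comparison, since 6 of 8 were lower in members and their summed level was 29.4 to 300.1 CPM in members and 1334 to 2524 CPM in blood endothelial cells. Without barcodes marked for other cells, 1163 of the 1308 rises and 1384 of the 1665 falls were called again. Leaving them out lowered the blood endothelial cells from 721, 571, 729 and 772 to 584, 457, 455 and 435 (SAR131675 diet, control diet, LNR and sham). A larger part of this class than of the members thus carried such a mark in each library. Several differences were larger without marked barcodes, with Vcam1 at -5.17, Nrp1 at -7.82, Vegfc at -6.71, Cd36 at -4.30, Csf1 at -1.96, Pdpn at 7.88, Ackr2 at 7.15, Il7 at 7.91, Apba2 at 9.41, Slc45a3 at 9.30, Fgf12 at 7.83, C1qtnf9 at -8.80 and Flt1 at -7.83, while Il34 and Tnfrsf11b could not be tested. The part of pericyte RNA in these calls was not tested.

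Members were also compared among themselves by their Lyve1 level, a value that the rule had used. In each library they were ranked by Lyve1 UMIs per UMI, and the highest tertile (48, 55, 35 and 41 cells) was compared with the lowest. Of 5471 genes, 493 were higher in the high-Lyve1 tertile (9.01%) and 459 were lower (8.39%). Ccl21a measured 25129.5, 23132, 24902 and 21873 CPM in the high tertile and 12948, 8293, 11837 and 8931 CPM in the low tertile, a log2 fold change of 1.20 ± 0.10 (SE, n = 4 libraries), adjusted p = 9.66e-11. Ackr2 measured 169, 226, 173 and 301 CPM against 44.1, 71.6, 47.3 and 65 CPM, a change of 1.89 ± 0.21 (SE, n = 4 libraries), adjusted p = 1.71e-08. All 6 tested capillary genes were higher in the high tertile, and 4 of 6 were without barcodes marked for other cells. Foxp2 changed by -1.06 ± 0.22 and Clu by -2.51 ± 0.40. Ablim3 rose by 1.98 ± 0.20, Enpp3 by 2.00 ± 0.24, Dysf by 2.00 ± 0.29, Nexmif by 1.97 ± 0.30, Efcc1 by 2.04 ± 0.37, St6galnac3 by 1.88 ± 0.27 and Chst15 by 1.83 ± 0.28. The transcripts 4833403J16Rik and 4833422C13Rik rose by 1.98 ± 0.38 and 1.85 ± 0.34. Without marked barcodes, 4833403J16Rik no longer passed (1.21, adjusted p = 0.0663 by edgeR), 4833422C13Rik and Clu could not be tested, and Enpp3, Dysf, St6galnac3 and Chst15 were smaller, at 1.20, 1.14, 1.11 and 1.08.

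Several of the genes named as highest in the low tertile were those of other cells. F13a1 measured 0, 0, 0 and 8.15 CPM in the high tertile and 240.3, 99.9, 156 and 89.8 CPM in the low tertile. The epidermal genes Lypd3, Dsg1a, Trim29, Krt24 and Psapl1 changed by -5.30, -4.74, -4.59, -4.41 and -4.39, and Moxd1, Tmem45a, Bcl11b and Cd44 by -5.09, -4.81, -4.78 and -4.72. Of 8 keratinocyte markers 7 were lower in the high tertile, with Krt14 at 70.9, 58.9, 278 and 89.6 CPM against 978, 1349.5, 1761 and 1941 CPM, and 2 of 5 tested fibroblast markers were lower. Of all genes 8.39% were lower. A barcode that holds UMIs of other cells has a lower Lyve1 share by construction. Without the marked barcodes, 71 genes were higher and 64 were lower, of which 66 and 50 were among the 493 and 459 called before. Ccl21a then stood at 0.75 (adjusted p = 2.87e-06), Ackr2 at 1.79 (5.31e-06), Piezo2 at 0.81 (0.00213), Ablim3 at 1.41 (5.69e-05) and Foxp2 at -1.47 (2.54e-04), by the same edgeR test. The pan-endothelial genes Pecam1 and Cdh5, higher in the high tertile by 0.58 ± 0.14 and 0.58 ± 0.16, no longer passed (adjusted p = 0.864 and 0.775), nor did Pdpn (0.254) or Krt14 (-1.97, adjusted p = 0.251). With all members 7 of 14 pan-endothelial genes were higher, and without marked barcodes none of 13 was higher and 1 was lower. Of 7 keratinocyte markers tested without marked barcodes, 2 were still lower, beside 64 of 4883 genes, with a median log2 fold change of -1.97. The part of keratinocyte RNA in the calls that remained was not tested.

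**Figure D4:**
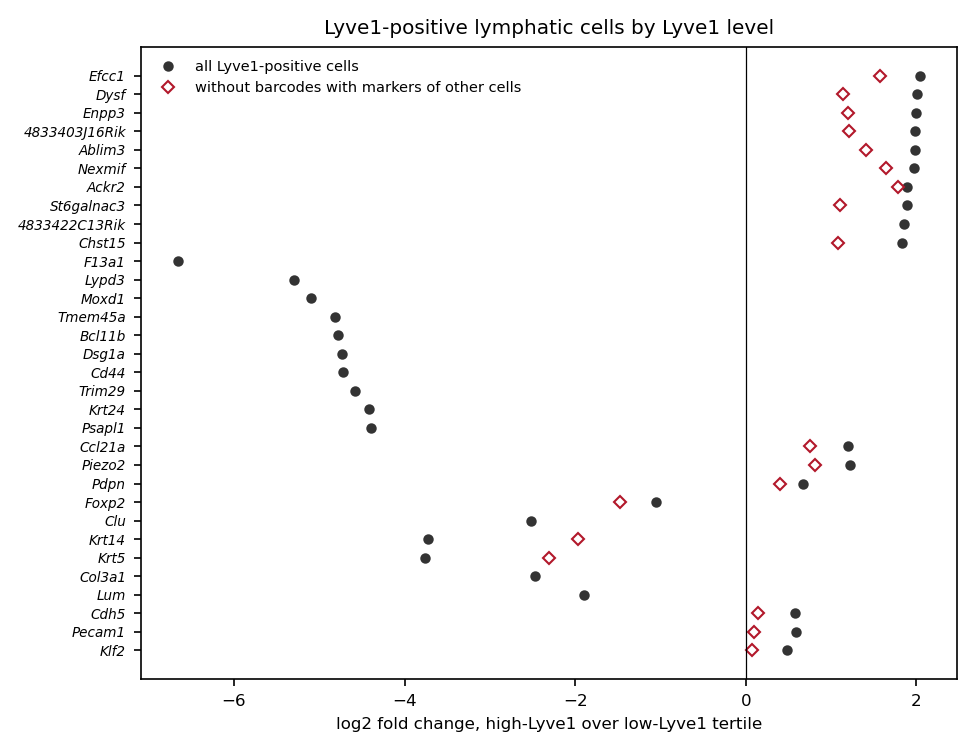
Log2 fold change of the high-Lyve1 over the low-Lyve1 tertile of Lyve1-positive LECs, for the genes named by size and others named in the text. Filled points are all members and open diamonds leave out barcodes with markers of other cells, where the gene could be tested. Ccl21a, Ackr2 and Foxp2 kept their side of 0. Lypd3, Dsg1a, Trim29, Krt24 and Psapl1 had too few UMIs to test once marked barcodes were left out. Krt14 and Krt5 could be tested and stood at -1.97 and -2.31, without passing.

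The study used SAR131675 and LNR to disturb lymphatics, and asked what lymphatic vessels do for digit regeneration, immune cells and osteoclasts. Among the list genes past 1.5-fold within Lyve1-positive LECs, Sox18 and Icam1 were higher in the SAR131675 library than in control diet and Klf2 was lower. They were picked from the lists by no rule of size. Other list genes moved as far, such as Icam2 (0.81), Zfp36 (0.79) and Esam (0.74) higher and Clu (-0.93) lower. A gene past 1.5-fold is counted here with no test, since each condition has 1 library. Of 6936 genes with at least 50 UMIs over the pair, 342 were past 1.5-fold higher with SAR131675 (4.93%) and 489 were past it lower (7.05%). The rule asked each cell for UMIs of Lyve1 and of at least 3 of the other 4 genes, which conditions all 5, so their ratios are given as a description only, and none was past 1.5-fold. Flt4 measured 586 CPM (539.5 to 634) against 614 CPM (571 to 659), a log2 ratio of -0.07 (-0.22 to 0.09), with exact 95% Poisson intervals for the levels. Lyve1 had a log2 ratio of 0.05 (-0.02 to 0.11), Prox1 of 0.24 (0.12 to 0.36) and Reln of -0.24 (-0.33 to -0.14). Ccl21a measured 18134 CPM (17874 to 18398) against 15366 CPM (15149.5 to 15585), a log2 ratio of 0.24 (0.21 to 0.27), and its ratio was 0.05 without barcodes marked for other cells. None of 6 capillary genes and none of 9 VEGF-C and angiopoietin signaling genes was past 1.5-fold. Of 15 lymphatic identity genes Sox18 and Nts were, a share near that of all genes in both directions together, with a median log2 ratio of 0.24 over the list and -0.003 over all genes.

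Sox18, a transcription factor upstream of Prox1, measured 178 CPM (153 to 205) against 103 CPM (86.3 to 123), a log2 ratio of 0.78 (0.45 to 1.12). It was found in 83 of 145 members with SAR131675 and 76 of 167 on control diet. Klf2, a transcription factor induced by flow, measured 172 CPM (147 to 199) against 290 CPM (261 to 322), a log2 ratio of -0.76 (-1.03 to -0.49), with UMIs in 58 and 100 cells. Icam1 measured 203 CPM (176 to 233) against 114 CPM (95.8 to 134), a log2 ratio of 0.84 (0.52 to 1.15). Without barcodes marked for other cells, the log2 ratios of these genes were 0.66, -0.88 and 0.81. Nts had a ratio of 1.01 (0.74 to 1.28), which was 0.58 without marked barcodes and 2.09 with thinned cells. By list, 2 of 12 leukocyte trafficking genes were past 1.5-fold higher and none was lower. Of 16 collecting vessel and valve genes 1 was past it higher and 2 were lower. Of 14 immediate early genes, Zfp36, Hspa1b and Hspa1a were past it higher. Over all genes, 4.93% were past it higher and 7.05% lower.

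Several genes with the largest ratios in the diet pair rested on a few cells, and marker lists of other cells moved with them. All 6 macrophage markers with enough UMIs were past 1.5-fold higher with SAR131675, 5 of 7 fibroblast markers were past it lower, and of 8 keratinocyte markers 5 were lower and 1 was higher. The shares over all genes were 4.93% higher and 7.05% lower. Higher with SAR131675 were the class II antigen presentation genes H2-Ab1, H2-Aa, H2-Eb1 and Cd74 (log2 ratios of 6.58 to 7.85), the myeloid genes Pf4 at 7.19 (4.68 to 12.50), Lyz2 at 6.12 (4.24 to 9.19) and Wfdc17 at 4.62 (4.16 to 5.11), and the mitotic gene Top2a. H2-Ab1 had UMIs in 6 members, of which the highest held 50.5%, and Pf4 in 4, of which the highest held 84%. Lower with SAR131675 were the hemoglobin genes Hbb-bt, Hbb-bs and Hba-a1 at -5.83 (-6.71 to -5.08), -3.32 (-3.49 to -3.15) and -3.16 (-3.39 to -2.93), lubricin Prg4 at -4.86 (-5.34 to -4.42), the growth factor Hbegf at -3.81 (-4.96 to -2.84), Krt1 at -3.37 (-3.61 to -3.14), Defb6 at -3.17 (-4.34 to -2.18) and Rgcc at -3.11 (-4.28 to -2.12). Taken gene by gene, the highest control diet cell held 85.1% of the Hbegf UMIs, 96% of those of Defb6, 72.6% of those of Rgcc and 68.8% of those of Prg4. The highest SAR131675 cell held 93.5% of the Wfdc17 UMIs and 86% of those of Lyz2. Barcodes with at least 3 macrophage genes numbered 4 of 145 with SAR131675 and 0 of 167 on control diet, and those with keratin UMIs of at least 1% numbered 4 and 20. Without marked barcodes, H2-Ab1 had 3 UMIs with SAR131675 and 1 on control diet, and Krt1 changed direction to a log2 ratio of 1.60.

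Of 6 cell division genes with enough UMIs, Cenpf, Stmn1, Mki67 and Top2a were past 1.5-fold higher with SAR131675, and Pcna and Tyms were not. Of all genes 4.93% were past it higher. With marked barcodes left out, 3 genes of the list had enough UMIs and none was past 1.5-fold, with a median log2 ratio of -0.09. Top2a measured 92.2 CPM (74.5 to 113) against 9.61 CPM (4.97 to 16.8), a log2 ratio of 3.26 (2.39 to 4.26), in 14 and 6 cells, and the proliferation marker Mki67 67.7 CPM (52.7 to 85.7) against 14.4 CPM (8.55 to 22.8), a log2 ratio of 2.23 (1.47 to 3.07), in 13 and 9 cells. Without marked barcodes, Top2a had 29 UMIs in 10 of 134 members with SAR131675 and 9 UMIs in 3 of 140 on control diet, and Mki67 had 20 UMIs in 7 cells and 12 UMIs in 4. In the LNR pair, Cenpf (1.46, 0.60 to 2.40) and Mki67 (0.82, 0.01 to 1.65) were past 1.5-fold higher. Stmn1 was past it lower (-0.59, -1.06 to -0.13), and Top2a had a ratio of -0.56 (-1.28 to 0.14). Over all genes of the LNR pair, 5.04% were past 1.5-fold higher and 5.13% lower.

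In the LNR pair, 4624 genes had at least 50 UMIs, of which 233 were past 1.5-fold higher with LNR (5.04%) and 237 were past it lower (5.13%). Of the rule genes, again as a description, Flt4 measured 775 CPM (713 to 839.6) against 669.8 CPM (615 to 728), a log2 ratio of 0.21 (0.04 to 0.38), and Lyve1 had a log2 ratio of 0.06 (-0.04 to 0.17). Ccl21a measured 14317 CPM (14049 to 14588) against 11576 CPM (11344 to 11811), a log2 ratio of 0.31 (0.27 to 0.35), and its ratio was 0.20 without marked barcodes. Of 15 lymphatic identity genes Nts alone was past 1.5-fold, at 0.65 (0.36 to 0.95), and none of 6 capillary or 9 VEGF-C and angiopoietin signaling genes was. Klf2 had a ratio of 0.13 (-0.04 to 0.30) and Sox18 of 0.13 (-0.23 to 0.48). Icam1 was higher with LNR as in the diet pair, at 0.46 (0.09 to 0.84), which is not past 1.5-fold. The matrix gene Fn1 measured 857 CPM (793 to 926) against 317 CPM (279.8 to 358), a log2 ratio of 1.43 (1.22 to 1.65), with 37.1% of its LNR UMIs in 1 cell, and its ratio was 0.38 without marked barcodes and -1.17 with thinned cells. Ackr2 had a ratio of -0.51 (-0.98 to -0.06), and without marked barcodes, with LNR at 101 CPM against 158 CPM, it was the 1 capillary gene of 6 past 1.5-fold lower.

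The largest ratios of the LNR pair included genes of other cells. All 7 macrophage markers with enough UMIs and 7 of 8 keratinocyte markers were past 1.5-fold lower with LNR, beside 5.13% of all genes. Lower with LNR were the neutrophil granule genes Camp, Ngp, S100a8 and S100a9, the cornified layer genes Sprr1a, Crct1 and Cst6, and the hair follicle keratin Krt25. All 749 UMIs of Camp lay in 1 sham cell, as did all 466 UMIs of Ngp, and the highest sham cell held 99.4% and 99.6% of the S100a8 and S100a9 UMIs. These cells were found gene by gene and may differ between genes. With 0 UMIs in LNR and a floor of 3 counts, Camp, Ngp and Krt25 were at least 232-fold, 144-fold and 40.6-fold lower. The exact conditional intervals of their log2 ratios, which also cover the counting error in sham, reached up to -7.56, -6.87 and -5.02, which are smaller differences. Sprr1a had a log2 ratio of -9.78 (-15.09 to -7.30), Crct1 of -9.07 (-14.38 to -6.59), S100a9 of -9.04 (-11.32 to -7.49), S100a8 of -8.18 (-9.63 to -7.06) and Cst6 of -7.37 (-7.88 to -6.90). Higher with LNR were the lipid synthesis genes Elovl6, Scd1 and Elovl4 at 4.09 (2.92 to 5.57), 2.50 (2.01 to 3.03) and 1.67 (1.21 to 2.15), the fatty acid carrier Fabp5 at 1.82 (1.60 to 2.04), Prg4 at 3.24 (3.12 to 3.37), Gpx3 at 1.82 (1.48 to 2.16), Hba-a2 at 1.99 (1.45 to 2.56) and Cisd1 at 1.55 (1.00 to 2.14). Taken gene by gene, the highest LNR cell held 76.3% of the Scd1 UMIs, 95.5% of those of Elovl4, 97.7% of those of Hba-a2, 57.3% of those of Fabp5 and 48.5% of those of Prg4. The Prg4 ratio was 0.52 without marked barcodes and turned to -3.76 with thinned cells, where Fabp5 and Hba-a2 stood at 3.13 and 3.77. For thinned ratios the member rule was applied again after thinning, which left 40 LNR and 56 sham members. Barcodes marked for other cells were 20% of LNR members and 24.2% of sham members, and their part in these ratios was not tested beyond leaving them out.

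**Figure D5:**
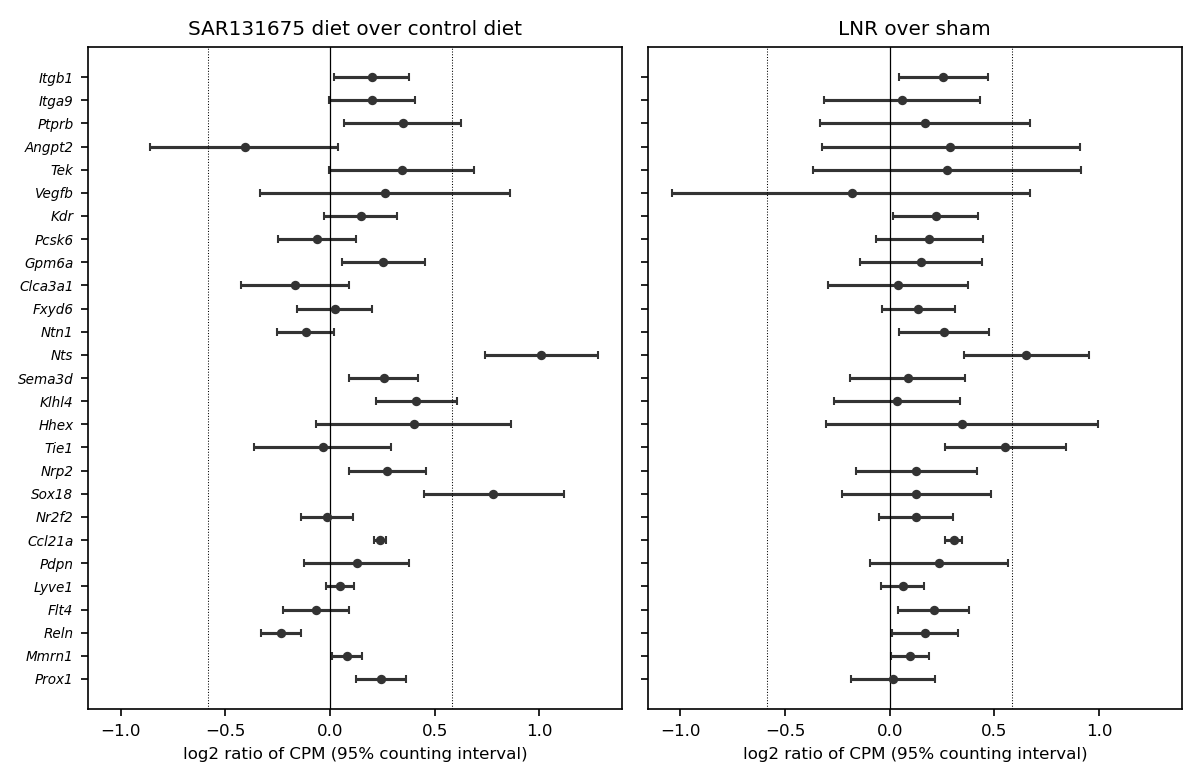
Log2 ratio of CPM within Lyve1-positive LECs with its exact conditional 95% interval for counting error, SAR131675 diet over control diet at the left and LNR over sham at the right, with dotted lines at 1.5-fold. Among these lymphatic and VEGF signaling genes, Sox18 and Nts lie past 1.5-fold in the diet pair and Nts in the LNR pair.

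Of 10 factors that act on osteoclasts, the bone-resorbing cells that the study followed, 8 could be tested against blood endothelial cells, of which 4 were lower in members and Tgfb1 was higher, beside 14.1% and 11.1% of all genes. Without barcodes marked for other cells 4 could be tested, which leaves out Il34 and Tnfrsf11b. Tgfb1, a growth factor held in bone matrix, measured 139.7, 125, 209 and 192 CPM in members and 110.4, 116, 95 and 78.2 CPM in blood endothelial cells, a log2 fold change of 0.71 ± 0.21 (SE, n = 4 libraries), adjusted p = 0.0483. Tnfsf11, which encodes RANKL, had 1 UMI in all 541 members, and 3 counts in all of them would be 0.779 CPM. Its receptor gene Tnfrsf11a measured 72.6, 70.5, 35.4 and 35.4 CPM in members and 76.2, 96, 52.4 and 34.3 CPM in LECs without Lyve1. Csf1, the macrophage growth factor, changed by -1.20 ± 0.22 against blood endothelial cells, and the cytokine Il6 changed by -5.25 ± 0.45, at 6.07, 0, 11.4 and 9.44 CPM against 262, 169, 234 and 200.2 CPM. Il34 and the RANKL decoy Tnfrsf11b were also lower. Neither Tnfrsf11a nor Tgfb1, the 2 genes of the list with at least 50 UMIs, was past 1.5-fold in either pair.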

How the data were processed

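For each library the authors deposited a Cell Ranger matrix of unnormalized UMI counts, with 33696 genes by barcodes. The file headers give version 6.1.2 for LNR and sham and 8.0.1 for the diet pair, whereas the submitters' processing notes give 6.1.2 and GRCm39 for all 4 samples. No coordinates or sequences are given. The limits on cells are those the study states for the LNR data, and doublets were left in. The methods' SCTransform and Harmony steps were not used, because classes came from UMIs of named genes.

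UMIs were summed per library and class and tested with edgeR 4.0.16 (TMM scaling, filterByExpr, robust quasi-likelihood fit with library and class, R 4.3.3), with Benjamini-Hochberg adjustment over all genes tested. DESeq2 1.42.0 was an alternative. The test was checked on simulated counts, where the share of false calls stayed under the nominal rate between Lyve1 tertiles but was above it against LECs without Lyve1 and against blood endothelial cells. Differences between conditions were computed in Python 3.11.15 with scipy 1.17.1 as ratios of CPM with exact intervals, over genes with at least 50 UMIs in the pair. The members and the 25 gene lists were chosen with earlier results of these data known.

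Genes named were those of the lists and, for each test, the 10 highest and 10 lowest log2 fold changes at an adjusted p under 0.05, with the same sign in all 4 libraries and at least 50 CPM in the higher class. For the condition pairs they were the 8 highest and 8 lowest ratios among genes with at least 100 UMIs. Alternatives are given at the end. The mark of other cells, the mention of Itih5 and the values per top cell were chosen after values were seen.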

Additional observations from a re-analysis of the deposited data

Results flagged for a closer look

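In 119 checks of 4 libraries each, 9 values stood apart by Dixon's ratio at its 95% critical value, and chance alone flags about 1 in 20. The values are log2 differences between classes on CPM plus 1. Against LECs without Lyve1, Gata2 differed by -1.48 in SAR131675 and by -0.96 to -0.86 in the other libraries. Against blood endothelial cells, Ccl21a differed by 9.55 in sham and 12.6 to 12.9 elsewhere. Blood endothelial cells held 1.25, 1.17, 1.15 and 14 CPM of Ccl21a in the library order of the report. In the same comparison, Duox2 differed by 5.68 in sham (5.08 to 5.18 elsewhere), Ptprr by -6.17 in SAR131675 (-5.26 to -5.10), Nrp2 by 0.377 in control diet (0.77 to 0.84), Ackr2 by 4.13 in LNR (5.50 to 5.77) and Cd36 by -4.82 in control diet (-2.60 to -2.43). Between the Lyve1 tertiles, Tmem45a differed by -6.50 in sham (-4.72 to -4.44 elsewhere) and Krt24 by -8.68 in sham (-4.16 to -3.73).

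Among the genes with the largest ratios of either pair, 13 had opposite directions in the 2 pairs, each beyond its counting interval, and the difference between the pairs was not tested. Log2 ratios for SAR131675 over control diet and for LNR over sham were 7.19 and -0.84 for Pf4, 6.12 and -2.30 for Lyz2, and 4.62 and -4.23 for Wfdc17. They were -4.86 and 3.24 for Prg4, whose LNR ratio turned to -3.76 with thinned cells and was 0.52 without barcodes marked for other cells, -3.32 and 1.53 for Hbb-bs, -3.16 and 1.09 for Hba-a1, and -3.05 and 1.99 for Hba-a2. Rgcc had -3.11 and 0.87, Elovl6 -1.44 and 4.09, Scd1 -1.34 and 2.50, Fabp5 -1.69 and 1.82, Gpx3 -1.67 and 1.82, and Elovl4 -1.85 and 1.67. Other genes of the lists were opposite too, with both intervals clear of 0, at 1.63 and -1.08 for Mrc1, 6.5 and -1.71 for C1qa, 6.48 and -2.01 for C1qc, 0.78 and -0.92 for F13a1, 2.49 and -1.04 for Krt15, 1.31 and -0.59 for Stmn1, -0.76 and 0.79 for Lrp1, 0.64 and -0.40 for Hspa1b, 0.29 and -0.47 for Apoe, and -0.24 and 0.17 for Reln. C1qb had no UMI in control diet members and a ratio of -1.45 in the LNR pair.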

How the results depend on the processing

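No paired analysis was possible because each condition is 1 library, so that LNR and sham, although opposite limbs of the same mice, form a single pair. Against LECs without Lyve1, the 339 higher and 378 lower genes became 151 and 201 with DESeq2, 13 and 8 without the library block, and 122 and 138 with cells thinned to 3000 UMIs. In all thinned tests, ratios and shares of members, thinned cells had to meet the rules again. This left 112, 115, 40 and 56 members in SAR131675 diet, control diet, LNR and sham. Without a filter on low counts 549 genes were higher. Leaving out each library in turn gave 238 to 296 higher and 286 to 365 lower genes. Against blood endothelial cells, 556 were higher and 764 lower without the block, and leaving out libraries gave 860 to 1119 and 1136 to 1674, with 860 without SAR131675. Between tertiles, DESeq2 gave 175 and 245, no block 20 and 95, no upper limits on cells 1029 and 1155, thinning 25 and 35, and no low-count filter 1173 lower. Without barcodes marked for other cells, an alternative chosen after seeing the data, 71 were higher and 64 lower. Leaving out libraries gave 289 to 474 higher and 326 to 449 lower genes, with 289 higher without control diet. Klf2 turned to -0.13 when thinned.

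For SAR131675, the 342 and 489 genes past 1.5-fold became 121 and 209 at a minimum of 100 UMIs, 171 and 176 when thinned, and 302 lower without marked barcodes. For LNR, 233 and 237 became 77 and 78 at 100 UMIs, 49 and 61 when thinned, and 149 higher without marked barcodes. Fewer genes could be tested in each. Krt1 turned to 1.67 (thinned) and 1.60 (without marked barcodes) in the diet pair, and in the LNR pair Prg4 turned to -3.76 and Fn1 to -1.17 when thinned and Mki67 to -0.21 over all LECs. The cause was not tested. The log2 ratio of the SAR131675 share was -0.14 over all LECs, -0.34 (-0.69 to 0.01) without marked barcodes and -0.37 (-0.76 to 0.02) when thinned, and -0.52 to -0.43 in the other alternatives. The LNR share stayed between -0.42 and -0.10, with 0 inside each interval. Depth limits genes under 50 UMIs in a pair.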
